A study of Mus musculus with 8 samples.

Results

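Expression of 7 developmental transcription regulators, Tbx2, Hes1, Mkx, Hlf, Mybl1, Sox2 and Lbh, was followed in mouse embryonic fibroblasts (MEFs) given retinoic acid (RA). They are 7 of the 22200 genes of the deposited table, found there by symbol, and all 7 were among the 12673 genes that were abundant enough to test. They were picked because their values differ between the RA libraries and the untreated ones. Their changes in RA are therefore described with their spread, and no p-value is given for them. Where a rule for all genes that holds an adjusted p is applied to them, passing it is a description and no test. Tbx2 reached the minimum level for testing through the RA groups, where it was high.

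The 8 libraries came from immortalized MEFs of the C57BL/6 background whose genotype is labelled TAF4-/-, so every group should lack TAF4, which belongs to the TFIID complex at promoters. The labels give 3 groups, which are 3 untreated libraries at 12 h, 3 libraries after 12 h of RA and 2 after 72 h of RA. No untreated library at 72 h was analysed, so at 72 h the effect of RA and of time in culture cannot be told apart. The TAF4-null line that the study's methods name for RNA sequencing was made by Cre recombination of a floxed Taf4 allele in a parent line, so the cells stand for that line. The sample titles carry cl1, which resembles the study's name for the TAF4-expressing parent, and the genotype labels were followed. The design text counts 7 samples, while 8 are listed and were used. Nothing in the labels says that replicates were separate cultures, so the p-values given for other genes measure the spread between these libraries, which may be technical.

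RA is a derivative of vitamin A that enters the nucleus and binds the RA receptors (RARs). RARs pair with retinoid X receptors on DNA at direct repeats of the hexamer AGGTCA or AGTTCA, and ligand binding turns the pair from a repressor into an activator of the gene nearby. RA patterns the limb, heart, hindbrain and skeleton of the embryo, partly through genes that encode transcription factors. Of the 7 genes, Tbx2 and Lbh are known from limb and heart. Tbx2, Hes1 and Mkx encode DNA-binding proteins that mostly repress. Hlf, Mybl1 and Sox2 encode DNA-binding activators, and Lbh encodes a transcription cofactor.

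The sequence upstream of the start is shown for the 3 genes that have a promoter window in the table of RefSeq promoters used here (GRCm38.p6), since these are the stretches where a receptor half-site could be sought beside the changes in RA. Each line gives 250 bases, 5′ to 3′ on the strand of the gene, ending at the base before the annotated start. Capitals mark every match to a searched motif. The windows are chr11:90390918-90391167 (minus strand) for Hlf, chr17:72918055-72918304 (plus strand) for Lbh and chr3:34649745-34649994 (plus strand) for Sox2.
Hlf: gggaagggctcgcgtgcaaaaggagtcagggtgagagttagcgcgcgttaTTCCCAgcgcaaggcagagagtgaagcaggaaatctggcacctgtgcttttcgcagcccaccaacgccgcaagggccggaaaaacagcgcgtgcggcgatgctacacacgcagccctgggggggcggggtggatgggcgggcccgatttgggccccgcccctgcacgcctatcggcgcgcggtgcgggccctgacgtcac
Lbh: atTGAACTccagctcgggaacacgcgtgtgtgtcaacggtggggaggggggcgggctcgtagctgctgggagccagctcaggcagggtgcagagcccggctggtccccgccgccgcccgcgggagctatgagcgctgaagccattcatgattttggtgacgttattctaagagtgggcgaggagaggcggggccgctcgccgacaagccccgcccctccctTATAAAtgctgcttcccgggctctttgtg
Sox2: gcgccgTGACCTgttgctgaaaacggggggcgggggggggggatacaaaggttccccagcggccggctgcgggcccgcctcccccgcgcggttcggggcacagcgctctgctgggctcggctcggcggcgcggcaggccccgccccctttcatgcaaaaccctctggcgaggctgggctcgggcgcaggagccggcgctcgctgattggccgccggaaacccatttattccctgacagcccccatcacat

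The motifs were sought on both strands in the whole window, which runs from 250 bases before to 50 bases after the start. Lbh held the half-site AGTTCA, read as TGAACT on the printed strand, at -248, and Sox2 held AGGTCA, read as TGACCT, at -244. Over 32851 such mouse windows, 14% held AGTTCA and 16.3% held AGGTCA. None of the 3 windows held a direct repeat of these hexamers spaced by 1, 2 or 5 bases, and such repeats were rare everywhere, in 0.0822%, 0.0396% and 0.0396% of windows. Hlf held no half-site, and its capitals mark TGGGAA, the core bound by the Notch effector RBPJ, which stood in reverse at -200 and occurs in 25.6% of windows. The second run of capitals in Lbh is TATAAA, the core promoter element bound by TBP, at -29. It was sought on the strand of the gene only, as a motif added after the windows had been seen, and 8.32% of windows held it. The E-box CACGTG, the N-box CACGAG, the D-box TTATGTA, the T-box GGTGTGA, the Sox motif AACAAAG and the Myb motif AACTG were sought too, and none was in the 3 windows. Across all windows these were held by 7.15%, 6.47%, 2.63%, 3.98%, 5.85% and 44.8%, respectively. A match is a run of letters and no evidence of binding. All 3 windows were rich in CpG, with an observed to expected ratio of 0.89 for Hlf, 0.80 for Lbh and 0.82 for Sox2, against a median of 0.38 and an upper quartile of 0.75 over all windows.

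All values are the reads per gene that the authors normalised, called normalised reads here. The 8 columns held the same set of values in different order, with a total of 9442018.6 each, so they had been quantile normalised and the depth of each library is unknown. Levels of the 7 genes were not compared with each other, since whether values depend on transcript length is unsettled. For the same reason the marker sums below and the choice of the most abundant list genes are rough. Replicates correlated with Spearman's rho from 0.981 to 0.994. Within the groups, however, a shared axis held 50.1% of the variance, with 4 libraries on each side of it. Side 1 held the first and second untreated replicates, the third of RA 12 h and the second of RA 72 h, and side 2 held the others. The labels name no batch, and the changes are given within each side as well. The sides differed in a signal that scales with genomic span, estimated from long genes with few reads. It was 71.9 to 105 normalised reads per Mb in side 1 and 132 to 150 in side 2. The part of this signal in the axis was not tested. At 72 h each side holds 1 library. The sides were drawn from these same libraries, so likeness of the changes within them is a description and no independent check. The RA treatment was visible in Cyp26b1, which degrades RA (log2 change 5.99 at 12 h and 6.51 at 72 h), in Dhrs3 (3.46 and 4.60) and in the receptor gene Rarb (1.76 and 2.31). Taf4a, the symbol of Taf4 in the table, lay between 984 and 1449 normalised reads, a total over the gene that does not check the deleted part. Of 9 fibroblast markers, 8 had a mean of at least 10 normalised reads, the exception being Thy1. The summed fibroblast markers ran from 235645 to 256495 in untreated cells, from 236613 to 247114 at 12 h and from 215393 to 221410 at 72 h. That sum was mostly Vim, Col1a1, Fn1 and Col1a2, and Vim alone read 82396 to 110139. The sums for pluripotent, epithelial, endothelial and leukocyte markers did not exceed 76.4 in any library. Of 5 neural markers, 4 were present and 2 had a mean of at least 10 normalised reads. Their sum was mostly Nes, which alone read 348 to 596. The sum ran from 379 to 471 in untreated cells, from 454 to 587 at 12 h and from 557 to 632 at 72 h. The part of these markers in the results, Sox2 included, was not tested.

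**Figure D1:**
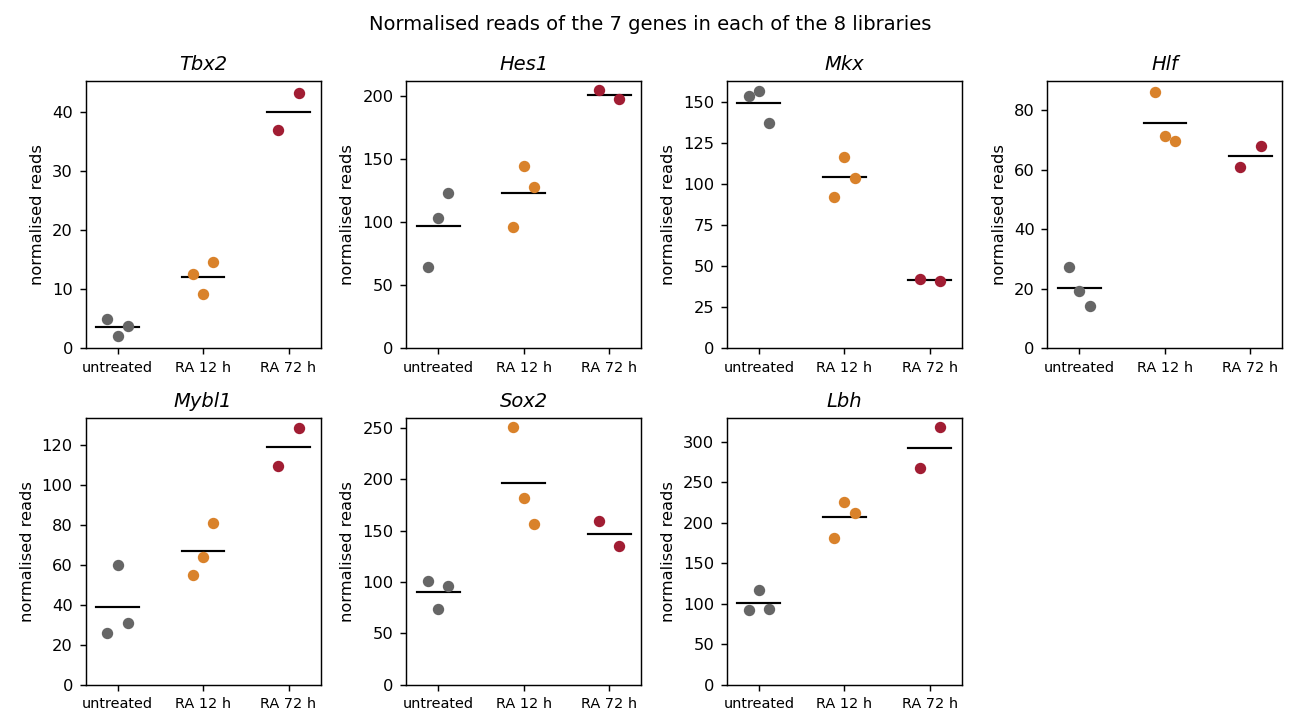
Normalised reads (linear axes from 0, a scale per gene) of the 7 genes in each of the 8 libraries, grouped as untreated, RA 12 h and RA 72 h, with points for libraries and bars for group means. Tbx2 climbs from 2 to 4.88 in untreated libraries to 36.9 and 43.1 at 72 h, while Mkx drops from 137 to 157 to 41.1 and 42.1.

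The patterns in time fell into 3 shapes. Tbx2, Lbh, Mybl1 and Hes1 had their highest mean at 72 h, Hlf and Sox2 had theirs at 12 h, and Mkx was lowest at 72 h. The call rule asked for a limma adjusted p below 0.05 together with a fold change of 2 or more in either direction. At 12 h this rule took 4 of the 7 genes (Tbx2, Hlf, Lbh and Sox2, all higher) and 1.42% of all tested genes, 1.11% higher and 0.308% lower. At 72 h it took 6 of 7, Mkx lower and all others but Sox2 higher, against 3.67% of all tested genes, 2.15% higher and 1.52% lower. Between 72 h and 12 h it took Tbx2 (higher) and Mkx (lower), against 1.5% of all, 0.765% higher and 0.734% lower. Values did not overlap between the groups for 5 of 7 genes at 12 h (20.0% of all tested genes), for all 7 at 72 h (36.6%) and for 6 of 7 between 72 h and 12 h (37.3%). The 7 genes were chosen on these contrasts, so nothing is read from these shares. An adjusted p below 0.05 without the fold limit, used for some relatives, took 4.37% of all tested genes at 12 h, 11.5% at 72 h and 5.84% between the times. Counts at an unadjusted p below 0.05 are given below for relatives and neighbours. The share of all genes at that limit was not computed, so nothing is read from those counts. The median log2 change of the 7 was 1.03 at 12 h and 1.53 at 72 h, beside -0.02 over all tested genes at both times.

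**Figure D2:**
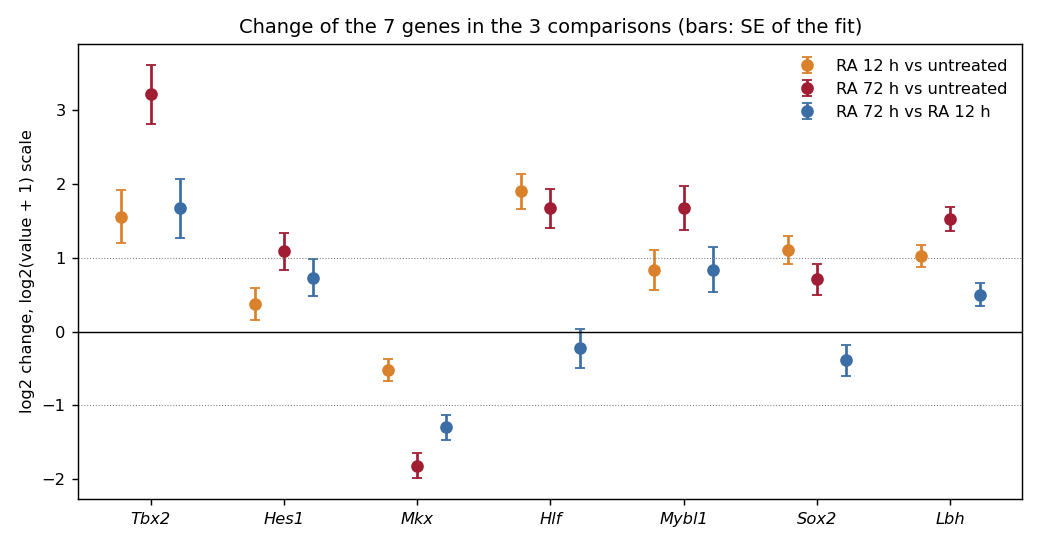
Log2 change with its standard error for each of the 7 genes in the 3 comparisons, on the log2(value + 1) scale. Tbx2 has the largest change at 72 h (3.22), Mkx is the one gene below 0 at 72 h (-1.82), and Mkx, Hlf and Sox2 lie below 0 between 72 h and 12 h, with dotted lines at a 2-fold change.

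Tbx2 (ENSMUSG00000000093, mm9 chr11:85646053-85655450, plus strand) encodes a T-box repressor needed in heart and limb development. Its untreated replicates 1, 2 and 3 read 4.88, 2 and 3.75 normalised reads. At 12 h of RA the replicates read 12.5, 9.13 and 14.6, and at 72 h they read 36.9 and 43.1. Each group lay wholly above the one before it, and the untreated values were close to the floor of the table, which is 1. The means were 3.54 ± 1.45 (SD, n = 3), 12.1 ± 2.77 (n = 3) and 40.0 ± 4.42 (n = 2). The ratio of means was 3.41 at 12 h and 11.3 at 72 h, and 72 h exceeded 12 h by a ratio of 3.31. The fitted log2 changes on the log2(value + 1) scale, which understates changes of low genes, were 1.56 ± 0.36 (SE) at 12 h, 3.22 ± 0.40 at 72 h and 1.67 ± 0.40 between the times. Within side 1 and side 2 they were 1.90 and 1.30 at 12 h, and 3.39 and 3.0 at 72 h. At 12 h Tbx2 fell out of the call rule when untreated replicate 2 was removed (log2 change 1.29), likewise for each of the 12 h libraries (replicate 1: 1.52, replicate 2: 1.73, replicate 3: 1.42) and for either 72 h library (1.56 each time). Between 72 h and 12 h it fell out on removal of 12 h replicate 1 (1.70) or 2 (1.49) and of 72 h replicate 1 (1.78) or 2 (1.56). A signal that scales with genomic span, estimated from long genes with few reads, would account for 17.7% to 34.5% of the untreated values.

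The other T-box genes gave a single call. Of 16 T-box genes, 7 were tested besides Tbx2. Their median log2 change was -0.25 at 12 h and 0.51 at 72 h, and 0 were called by limma at either time, with 0 past the adjusted p alone. At an unadjusted p below 0.05 there were 4 at 12 h, all lower, and 3 at 72 h, all higher. Between 72 h and 12 h, 1 was called, Tbx4, a hindlimb and lung regulator that lies 44.5 kb from Tbx2. Tbx4 read 33.2 ± 8.89 untreated, 20.9 ± 0.921 at 12 h and 46.8 ± 5.13 at 72 h, a log2 change of 1.12 between the times (limma adjusted p 0.0265). Its call needed every RA library, since removing 12 h replicate 1, 2 or 3 (1.13, 1.14 and 1.09) or 72 h replicate 1 or 2 (1.23 and 1.01) ended it. Bcas3, the tested gene nearest to Tbx2 at 6.5 kb, read 184 ± 27.1, 190 ± 10.6 and 198 ± 1.33, with log2 changes of 0.05 and 0.11.

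Hes1 (ENSMUSG00000022528, mm9 chr16:30064470-30067882, plus strand) encodes a basic helix-loop-helix repressor that Notch signalling switches on and that holds progenitors undifferentiated. The untreated replicates read 64.8, 103 and 124 normalised reads. At 12 h they read 95.9, 145 and 128, and at 72 h 205 and 198. The 12 h libraries overlapped the untreated ones, while both 72 h libraries lay above all 6 others. The means were 97.1 ± 29.8, 123 ± 24.8 and 201 ± 5.3 (SD), which made ratios of 1.27 at 12 h and 2.07 at 72 h. The log2 changes were 0.37 ± 0.22 (SE), 1.09 ± 0.25 and, between the times, 0.73 ± 0.25. The 12 h change had opposite signs within the sides, 0.64 in side 1 and -0.07 in side 2, so untreated cells and 12 h cannot be ordered. At 72 h both sides were positive, at 1.26 and 0.73. The 72 h value fell out of the call rule on removal of untreated replicate 1 (0.83) and of 72 h replicate 1 (1.07) or 2 (1.12).

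The Notch pathway around Hes1 was tested gene by gene. Of 19 ligands, receptors and modulators, 12 were tested and 0 were called by limma in any comparison, with medians of -0.05 at 12 h and -0.06 at 72 h. At an adjusted p below 0.05 without the fold limit, 0 passed at 12 h and 2 at 72 h, beside 5 and 5 at an unadjusted p below 0.05, and 1 passed between the times (3 unadjusted). These were the fringe gene Rfng, higher by 0.77 (adjusted p 0.0455), and Numbl, a relative of the Notch inhibitor Numb, which fell by 0.90 on the log2 scale (adjusted p 0.000503). They are named after their values were seen. Rbpj, the DNA-binding effector of Notch, read 2448 ± 152, 2094 ± 43.6 and 2369 ± 82.7, and the fringe gene Lfng read 608 ± 86.2, 465 ± 37.5 and 571 ± 20.1. Their log2 changes at 12 h were -0.22 and -0.38, with limma adjusted p of 0.232 and 0.114.

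Besides Hes1, 7 of 13 listed HES, HEY and ID genes and Notch targets were tested, and their median was -0.16 at 12 h and -0.56 at 72 h. At an unadjusted p below 0.05 by limma, 1 was higher and 2 were lower at 12 h, and 1 was higher and 5 were lower at 72 h. Without the share of all genes at that limit, no trend of the family is read from these counts. Id2, which encodes an inhibitor of helix-loop-helix activators, rose from 3413 ± 665 to 8968 ± 884 at 12 h and stood at 8010 ± 901 at 72 h, log2 changes of 1.41 and 1.24 (limma adjusted p 2.33e-05 and 0.000125). Hey2, a Notch target of heart and vessels, read 28.3 ± 5.89, 40.2 ± 3.8 and 12.3 ± 6.63. It was called lower at 72 h against untreated (-1.21, adjusted p 0.0283) and against 12 h (-1.72, adjusted p 0.00701). Id1, another gene of the ID class that is named after its values were seen, read 1344, 1205 and 951 on average and passed the adjusted p at 72 h without reaching 2-fold (-0.49, adjusted p 0.0437). Removing untreated replicate 1 (-1.07) or 2 (-1.21), 12 h replicate 2 (-1.21) or 72 h replicate 1 (-0.68) ended the first Hey2 call. Removing 72 h replicate 1 (-1.19) ended the second. At 72 h the changes of Hes1 and Hey2, which encode proteins of one class, thus had opposite signs.

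Mkx (ENSMUSG00000061013, mm9 chr18:6934964-7004777, minus strand) encodes Mohawk, an atypical homeobox protein of the TALE class that acts in tendon. It was the one gene of the 7 that was lower in RA. The untreated replicates read 154, 157 and 137 normalised reads, the 12 h replicates 92.4, 116 and 104, and the 72 h replicates 42.1 and 41.1. Each group lay wholly below the one before it. The means were 149 ± 10.7, 104 ± 12.0 and 41.6 ± 0.707 (SD), lower than untreated by a ratio of 1.43 at 12 h and 3.59 at 72 h, and 2.5 between the times. The log2 changes were -0.52 ± 0.15 (SE), -1.82 ± 0.17 and -1.30 ± 0.17. They were alike within the sides, at -0.58 and -0.40 at 12 h and at -1.89 and -1.68 at 72 h. No single library moved the 72 h value outside -1.88 to -1.78. The gene is 69.8 kb long, and signal in proportion to span would make up 17.8% to 24.8% of its 72 h values, so that subtracting it made the 72 h change -2.08.

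Genes known from tendon were split. Of 14, 7 were tested besides Mkx, with a median of 0.10 at 12 h, -0.20 at 72 h and -0.49 between the times. Scx, encoding the tendon regulator scleraxis, read 924 ± 123 untreated, 983 ± 25.1 at 12 h and 491 ± 92.7 at 72 h. Its log2 change was -0.92 at 72 h against untreated (limma adjusted p 0.000789) and -1.01 against 12 h (adjusted p 0.000844). The second value is next to the 2-fold limit and left the rule on removal of 12 h replicate 2 (-0.99) or 72 h replicate 2 (-0.82), while the first entered it on removal of untreated replicate 1 (-1.03) or 72 h replicate 1 (-1.11). The matrix genes Col1a2 and Bgn, named after their values were seen, fell by 0.47 and 0.67 on the log2 scale at 72 h (adjusted p 0.0239 and 0.000925). Col1a1 of the same list did not, with -0.02 at 72 h (limma adjusted p 0.97) and 0.50 at 12 h (adjusted p 0.137). However, Col1a1 read the same 65327.5 in all 3 libraries of 12 h. It read 40455.9 in untreated replicates 1 and 2 and in 72 h replicate 2. Quantile normalisation leaves the highest genes few possible values, so neither change measures the abundance of Col1a1 closely. Tnmd, Dcn, Fmod, Lum and Kera were too low to test, with means of 3.2, 5.7, 3.92, 1.48 and 3.72 normalised reads over the 8 libraries. Col1a1 and Col1a2 are also fibroblast markers. The summed fibroblast markers, mostly Vim, Col1a1, Fn1 and Col1a2, were lower at 72 h (215393 to 221410) than in untreated cells (235645 to 256495). Their part in the tendon values and in Mkx was not tested, and in bulk RNA fewer cells of a type and less RNA per cell cannot be told apart. Col14a1, a collagen of fibril surfaces, went the other way, from 28.2 ± 10.8 to 54.8 ± 7.43 and 62.6 ± 11.1, with a log2 change of 1.19 at 72 h (adjusted p 0.0213). That call ended on removal of untreated replicate 2 (0.87), 72 h replicate 1 (1.01) or 72 h replicate 2 (1.37). On removal of untreated replicate 3, Col14a1 was called at 12 h too (1.25).

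Other genes of the TALE class gave 1 call, in the other direction from Mkx. Of 17 other TALE genes, 15 were tested, with medians of 0.06 at 12 h and 0.11 at 72 h, and by limma 0 passed the adjusted p in the lower direction in any comparison, beside 2, 0 and 1 that were lower at an unadjusted p below 0.05 at 12 h, 72 h and between the times. Irx3, a patterning gene of limb and neural tube, was called higher at 12 h, from 62.2 ± 25.5 to 123 ± 10.7 (log2 change 1.05, limma adjusted p 0.0322). The call ended on removal of untreated replicate 1 (1.14) or 2 (0.70) or any of the 12 h libraries (1.01, 1.03 and 1.13 for replicates 1, 2 and 3). Pbx4, named after its values were seen, read 254, 284 and 393 on average and passed the adjusted p at 72 h (0.64, adjusted p 0.0117).

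Hlf (ENSMUSG00000003949, mm9 chr11:90197849-90252231, minus strand) encodes hepatic leukaemia factor, an activator of the PAR bZIP family that binds D-box elements and cycles with the circadian clock in several tissues. The untreated replicates read 27.4, 19.3 and 14.1 normalised reads. After 12 h of RA they read 86.3, 71.5 and 69.8, and after 72 h 61 and 68. All 5 RA libraries lay above the untreated ones, and both 72 h libraries lay just below the 3 of 12 h. The means were 20.2 ± 6.68, 75.8 ± 9.06 and 64.5 ± 4.95 (SD), ratios of 3.74 at 12 h and 3.19 at 72 h. The log2 changes were 1.90 ± 0.24 (SE) and 1.67 ± 0.26. Between the times the change was -0.23 ± 0.26, less than its error, so the 2 RA groups cannot be ordered. Within the sides it was 1.56 and 2.39 at 12 h and 1.53 and 2.04 at 72 h. Signal in proportion to its span of 54.4 kb would be 18.2% to 53.0% of the untreated values, and with it subtracted the changes were 2.29 and 2.03. Its window printed above held no receptor half-site.

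The PAR bZIP and clock genes around Hlf were also tested. Of 19 PAR bZIP and clock genes, 18 were in the table and 17 were tested, with medians of 0.00 at 12 h and -0.03 at 72 h. Among them 1 was called, Bhlhb2, also named Bhlhe40, a repressor within the clock. It rose from 122 ± 14.5 to 312 ± 41.9 and 411 ± 6.54, log2 changes of 1.35 and 1.75 (limma adjusted p 3.42e-05 and 7.76e-06), and kept both calls without any 1 library. Arntl, the core activator of the clock, read 227, 199 and 133 on average and fell by 0.76 on the log2 scale at 72 h (adjusted p 0.00395), while Per2, a core repressor, read 53.9, 56.3 and 95.3 and rose by 0.81 (adjusted p 0.0101). Nfil3, a repressor that competes for D-boxes, differed between the times by 0.83 (adjusted p 0.00916), with means of 227, 152 and 273. These last 3 were named after their values were seen.

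Mybl1 (ENSMUSG00000025912, mm9 chr1:9657496-9690290, minus strand) encodes A-Myb, an activator known for male meiosis. The untreated replicates read 25.8, 59.9 and 31 normalised reads, the 12 h replicates 55.1, 64.3 and 81, and the 72 h replicates 109 and 129. Untreated replicate 2 stood well above the other untreated libraries and above RA 12 h replicate 1, which made the groups overlap at 12 h. Both 72 h libraries lay above all others. The means were 38.9 ± 18.4, 66.8 ± 13.1 and 119 ± 13.6 (SD), ratios of 1.72 and 3.06. The log2 changes were 0.84 ± 0.27 (SE) at 12 h, 1.68 ± 0.30 at 72 h and 0.84 ± 0.30 between the times. They were 1.02 and 0.92 within the sides at 12 h and 1.68 and 1.79 at 72 h. With each library left out in turn, the 12 h change ran from 0.60 to 1.19. The highest value was that without untreated replicate 2, a library singled out after its value was seen.

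The partners and relatives of A-Myb gave no call. Of 14 Myb and MuvB genes besides Mybl1, the MuvB complex being the cell cycle regulator that B-Myb joins, 13 were in the table and 11 were tested. 0 were called by limma in any comparison, and their medians were -0.04 at 12 h and 0.14 at 72 h. At an adjusted p below 0.05 alone, 0 passed at 12 h, beside 1 at an unadjusted p below 0.05, and 1 passed at 72 h, Foxm1, a mitotic activator that is named after its values were seen. Foxm1 read 864, 804 and 1334 on average, a log2 change of 0.64 at 72 h (adjusted p 0.00559). Tfdp1, the dimer partner of E2F, read 2193 ± 105, 2391 ± 51.4 and 2417 ± 21.9, and Rbbp4, a histone-binding MuvB subunit, read 1838 ± 286, 1759 ± 86.9 and 1839 ± 230.

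Sox2 (ENSMUSG00000074637, mm9 chr3:34548927-34551383, plus strand) encodes an HMG-box activator of pluripotent and neural progenitor cells. The untreated replicates read 101, 73.4 and 95.8 normalised reads, the 12 h replicates 251, 182 and 156, and the 72 h replicates 159 and 135. All RA libraries lay above the untreated ones, and the 72 h libraries overlapped those of 12 h. The means were 90.1 ± 14.8, 196 ± 49.0 and 147 ± 16.8 (SD), ratios of 2.18 and 1.63. The log2 changes were 1.10 ± 0.19 (SE) and 0.71 ± 0.21, with -0.39 ± 0.21 between the times, and the RA groups cannot be ordered. Within the sides they were 0.85 and 1.15 at 12 h and 0.64 and 0.72 at 72 h. At 12 h Sox2 left the call rule on removal of untreated replicate 2 (0.96) or of 12 h replicate 1 (0.91), its highest library. The gene is a single exon and overlaps the span of the noncoding gene Sox2ot on the same strand. The annotation lists Sox2ot but the table does not. Only spans were compared, so whether reads of Sox2ot count towards Sox2 is unknown. The Sox2 window printed above held AGGTCA.

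Markers of pluripotent cells were low in all libraries. Of 5 pluripotency markers, 1 had a mean of at least 10, and their sum was 13.2 to 29.2 normalised reads in every library. Pou5f1, its main partner in pluripotent cells, read 2.67, 1.17 and 2.25 on average, and Nanog read 9.33, 11.9 and 14.2. Of 13 listed partners, 6 were tested, and 1 was called, Klf2, a zinc finger regulator. Klf2 read 27.7 ± 8.86, 17.7 ± 2.53 and 3.62 ± 1.77, with log2 changes of -2.64 at 72 h against untreated (limma adjusted p 0.000515) and -2.06 against 12 h (adjusted p 0.00644). The call against 12 h ended on removal of 72 h replicate 2 (-1.66). The 72 h libraries read 4.88 and 2.38 for Klf2, close to the floor of 1. Klf4, named after its values were seen, read 101, 117 and 58.8 and fell by 0.77 on the log2 scale at 72 h (adjusted p 0.00876). Of 17 other Sox genes in the table, 4 were tested and 0 were called by limma, beside 1 at an unadjusted p below 0.05 at 12 h, 1 at 72 h and 0 between the times. That gene was Sox4, a progenitor factor, which passed the adjusted p, from 1658 ± 33.6 to 2139 ± 114 and 2161 ± 9.72 (log2 changes 0.37 and 0.38, adjusted p 0.0315 and 0.023). Sox6 read 84.5 ± 23.8, 82.6 ± 14 and 89.6 ± 23.5.

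Lbh (ENSMUSG00000024063, mm9 chr17:73267645-73291282, plus strand) is named for limb bud and heart, where the embryo expresses it, and encodes a nuclear cofactor without a known DNA-binding domain. The untreated replicates read 92.5, 117 and 93.8 normalised reads, the 12 h replicates 182, 226 and 212, and the 72 h replicates 267 and 318. Each group lay wholly above the one before it. The means were 101 ± 13.7, 207 ± 22.8 and 293 ± 36.2 (SD), ratios of 2.04 and 2.9. The log2 changes were 1.03 ± 0.15 (SE) at 12 h, 1.53 ± 0.16 at 72 h and 0.50 ± 0.16 between the times. Both sides gave nearly the same values, 1.02 and 1.10 at 12 h and 1.61 and 1.5 at 72 h. The 12 h value sat at the 2-fold limit, so the call ended on removal of untreated replicate 1 (0.97) or 3 (0.98) or 12 h replicate 2 (0.96), with little movement of the value itself. Its window printed above held AGTTCA and TATAAA.

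Lbh is a known target of beta-catenin, and 10 of 14 other such targets were tested, with medians of -0.02 at 12 h and 0.12 at 72 h. Notum, which encodes a secreted inhibitor of Wnt proteins, was called lower, from 56.2 ± 6.53 to 24.1 ± 1.88 and 27.4 ± 0.707. Its log2 changes were -1.19 at 12 h (limma adjusted p 0.00327) and -1.01 at 72 h (adjusted p 0.0106), and the second call ended on removal of untreated replicate 3 (-0.92) or 72 h replicate 1 (-1.03) or 2 (-0.98). Ccnd1, encoding cyclin D1, and Apcdd1, a Wnt inhibitor, passed the adjusted p at 72 h with 0.50 (adjusted p 0.0147) and 0.86 (adjusted p 0.00763). Both were named after their values were seen. Targets of the pathway were thus found in both directions beside Lbh.

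**Figure D3:**
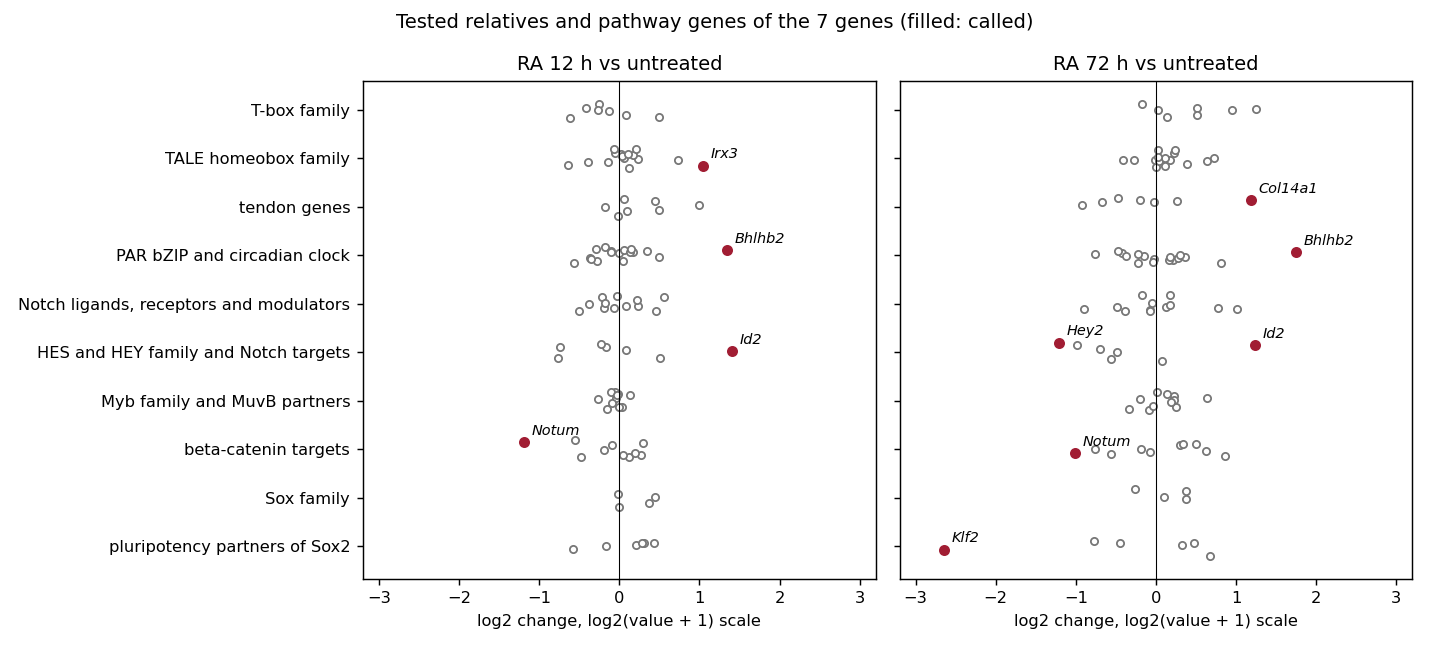
Log2 change of each tested relative or pathway gene in the 10 lists, at RA 12 h and RA 72 h against untreated, with filled points for called genes. Most points lie near 0 at both times, with Id2 (1.41) and Bhlhb2 (1.35) the called genes furthest to the right at 12 h and Klf2 (-2.64) furthest to the left at 72 h.

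Over the 10 lists, 96 of 157 genes were tested. At 12 h 3 were called higher and 1 lower, 4.17% of those tested beside 1.42% of all genes. At 72 h 3 were higher and 3 lower, 6.25% beside 3.67%, and between the times 1 was higher and 3 lower, 4.17% beside 1.5%. The median log2 change of the 96 was 0.00 at 12 h and 0.04 at 72 h. These lists were drawn up with earlier results of the data known, and nothing particular to them is read from the shares.

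**Figure D4:**
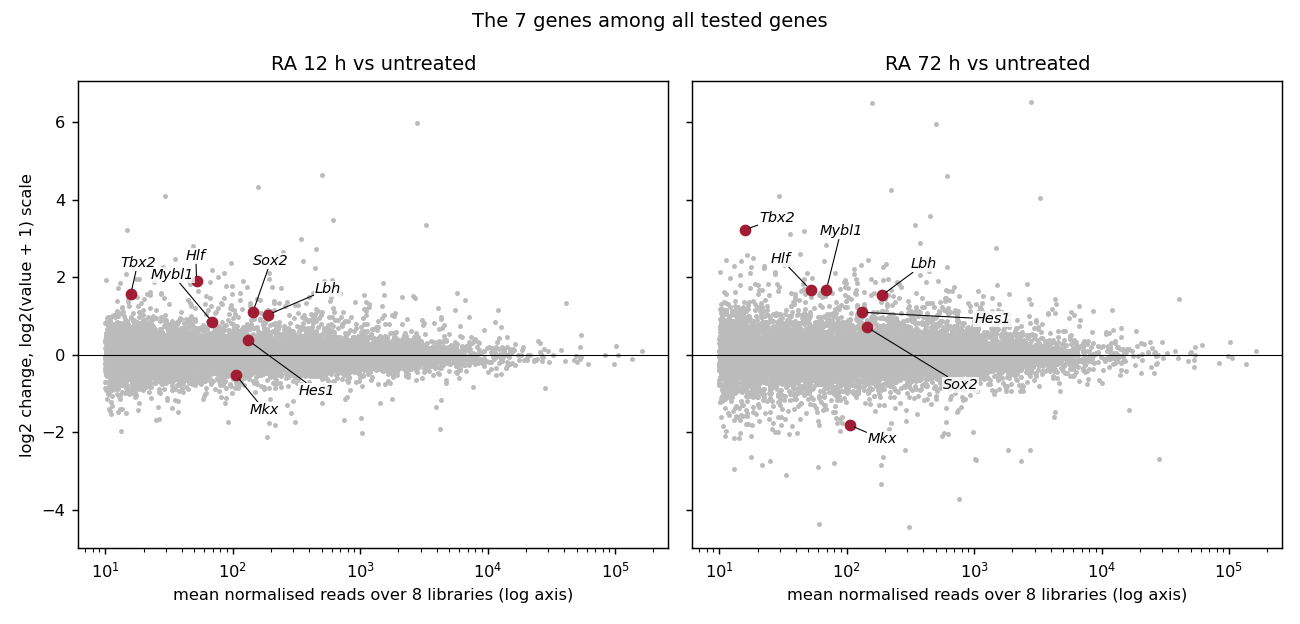
Log2 change against mean normalised reads over the 8 libraries (log axis) for all 12673 tested genes in grey and the 7 genes in red, at 12 h and 72 h against untreated. At 72 h Tbx2 (3.22) stands above most genes of its low mean, and Mkx (-1.82) lies in the lower tail, with 0.33% of tested genes below it. The 7 genes were picked for such changes, and Tbx2 reached the mean for testing through the RA groups. Their places among all genes are therefore no result.

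Neighbours on the chromosome were compared within 250 kb. The table held 27 such genes near 6 of the 7, with none near Sox2, and 15 were tested. By limma 0 were called at 12 h, 0 at 72 h and 1 between the times, the Tbx4 described above, where the same rule took 1.42%, 3.67% and 1.5% of all genes. At an unadjusted p below 0.05 there were 2, 4 and 4. Near Lbh, Lycat at 166 kb read 823 ± 56.4, 911 ± 8.65 and 1282 ± 12.3, and passed the adjusted p at 72 h with a log2 change of 0.64 (adjusted p 0.00117). Ypel5, at 67.1 kb on the same chromosome, passed in the other direction with -0.40 (adjusted p 0.0275). Stxbp4, which lies 85.6 kb from Hlf, read 82.0 ± 3.24, 111 ± 3.56 and 96.3 ± 4.33 and did not pass (0.43 at 12 h, adjusted p 0.118). These 3 were named after their values were seen.

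The genes with the most similar profiles were found by Pearson's r of log2(value + 1) over the 8 libraries. These values are descriptions, since the libraries fall into 3 groups and r mostly follows the group means. For Mkx they were Bgn (0.997), Vcan (0.993) and Thbs1 (0.992), all genes of the extracellular matrix. For Tbx2 they were Tgfbr3 (0.984), Ncoa3 (0.983) and 4930417M19Rik (0.983). Synpo (0.985), Nuak2 (0.984) and Mid1ip1 (0.982) lay nearest to Hlf, and Dynll2 (0.966), 2310044G17Rik (0.962) and 1700008F21Rik (0.960) nearest to Hes1. For Mybl1 they were Islr (0.990), Tubb6 (0.986) and Palld (0.986), for Lbh Hs3st1 (0.986) and Pdgfb (0.985), and for Sox2 Dennd5b (0.983), Nup62 (0.978) and Atp11a (0.975). Among the 7 genes themselves r was 0.93 for Mybl1 and Lbh, 0.90 for Tbx2 and Lbh, 0.89 for Hlf and Sox2 and -0.95 for Tbx2 and Mkx. It was 0.26 for Hes1 and Sox2.

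**Figure D5:**
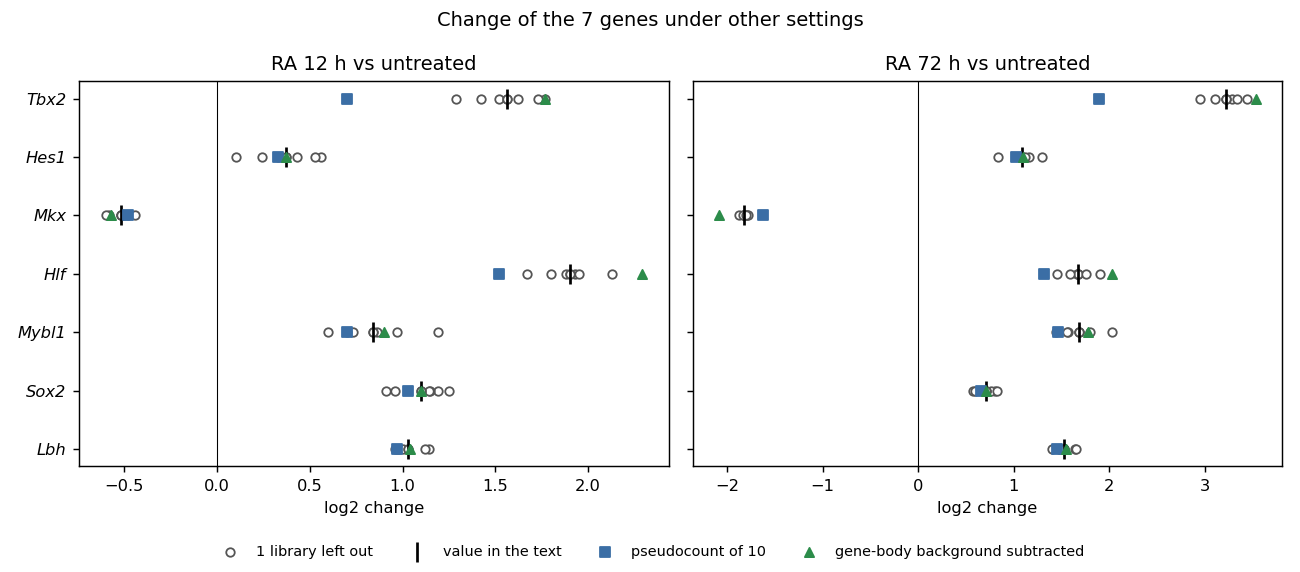
Log2 change of the 7 genes at 12 h and 72 h with each library left out in turn (open circles), with a pseudocount of 10 (squares) and with signal in proportion to genomic span subtracted (triangles), beside the value in the text (bars). No point crosses 0, and Tbx2 moves most with the pseudocount, from 1.56 to 0.70 at 12 h.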

How the data were processed

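Polyadenylated RNA of 8 MEF libraries was sequenced. The deposited table gives, per Ensembl gene, reads that the authors normalised. In the study's methods the authors describe fragmented RNA, reads aligned to mm9 with Tophat, FPKM values from Cufflinks converted to counts and normalization by the authors with DESeq, while the labels describe a DpnII tag kit with 18-base reads. The methods give another time than the 72 h of the labels, which was followed. The deposited values are quantile normalised (floor 1) and are not counts, so no count model, counting interval or detection limit was used. The table also holds the authors' group averages and log2 ratios, which were not used, and 1 line without a gene was left out.

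Values were fitted as log2(value + 1) with limma 3.58.1 (R 4.3.3), with 3 groups in one fit, a variance trend and a mean of at least 10. Adjusted p-values are two-sided, by Benjamini-Hochberg over the 12673 genes tested in each contrast. The code was tested on simulated data. The 7 genes and the lists were chosen with earlier results of these data known. Genes named are the 7, per list the called genes (at most 4) or else the 2 most abundant, per gene the 3 most similar, and Taf4, Cyp26b1, Dhrs3 and Rarb. One of the most similar genes is not reported here. Any other was named after its values were seen. The signal that scales with span was the 25th percentile of value per length of genes over 200 kb. Coordinates are 1-based. Promoter windows came from RefSeq, for 3 of 7 genes.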

Additional observations from a re-analysis of the deposited data

Results flagged for a closer look

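Called list genes whose level differed between RA 72 h and RA 12 h, by limma's test of that difference, were set apart for a closer look. They are Tbx4 (log2 change 1.12), Scx (-1.01), Hey2 (-1.72) and Klf2 (-2.06). Each of these 4 values rests on the 2 libraries at 72 h, and the calls of all 4 were lost on leaving out at least 1 library. The effects at 12 h and at 72 h share the untreated libraries, and no untreated library at 72 h was analysed.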

How the results depend on the processing

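The log2 changes of the 7 genes kept their sign under the alternative fits, but within side 2 alone Hes1 at 12 h was -0.07 against 0.37 over all libraries. With a pseudocount of 10, Tbx2 changed to 0.70 at 12 h, 1.89 at 72 h and 1.18 between the times, Hlf to 1.52 and 1.32, and Mkx to -1.62 at 72 h and -1.14 between the times. With signal in proportion to span subtracted, Hlf changed to 2.29 and 2.03, and Mkx to -2.08 and -1.51. Of the 7 genes, those within the call rule at 12 h went from 4 to 2 with the larger pseudocount and to 2 or 3 on leaving out a library. They went to 3 without the filter, and to 3 with only the 2 groups compared, Tbx2 being lost each time. Between 72 h and 12 h the genes within the rule went from 2 to 1 without the filter, and to 1 or 2 on leaving out a library. At 72 h they were 5 or 6, Hes1 being the one lost. With no fold limit, 554, 1456 and 740 of all genes passed at 12 h, 72 h and between the times. Leaving out a library gave 148 to 322 calls at 12 h (322 without untreated replicate 3, of which 171 were among the 180), 356 to 641 at 72 h and 150 to 211 between the times.

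In the lists, calls went to 2, 3 and 2 with a pseudocount of 10, and to 20 at 72 h and 14 between the times with no fold limit. Leaving out a library gave 3 to 5, 4 to 7 and 1 to 4 (2 without RA 12 h replicate 2 and 1 without RA 72 h replicate 2). Over the single list genes and settings, 47 values lost the call and 3 gained it. The labels do not say whether replicate numbers pair the samples. Deviations from the group means of libraries with the same number had correlations from -0.474 to 0.42. With so few libraries per group, these correlations cannot decide whether the samples are paired. With replicate as a block, 174, 430 and 172 genes were called, against 180, 465 and 190, and the 7 genes kept 4, 6 and 1 of 2 calls, Tbx2 being lost between the times. The causes were not tested. Depth is unknown, and 72 h rests on 2 libraries.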
